A study of Mus musculus with 8 samples.

Results

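Endothelial cells line every blood vessel, and 8 genes that mark them were followed in cartilage dissected from the medial side of the mouse knee: Cdh5, Pecam1, Esam, Tek, Tie1, Eng, Emcn and Vwf. They were taken by name as endothelial junction, surface and vessel genes, and all 8 were found among the 50462 gene identifiers of the deposited table. RNA-seq libraries came from single wild-type C57BL/6J males, 4 in each of 2 groups. The naive mice received no treatment and were sampled at day 0, at 11 weeks of age. The DMM mice had the medial meniscus of the left knee destabilised (DMM: the ligament that holds the meniscus to the tibia is cut, and osteoarthritis follows) at 11 weeks, and were sampled at day 42, at 17 weeks. Sham-operated mice were not analysed here, and the effects of surgery and of the added age cannot be told apart.

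Articular cartilage itself is free of blood vessels, whereas the bone and marrow under it and the synovium beside it are richly supplied. The flat endothelial cells of a vessel hold together through VE-cadherin (Cdh5), Pecam1 and Esam at their borders. Tie1, Tek (the angiopoietin receptor Tie2) and endoglin (Eng, a co-receptor for ligands of the TGF-beta and BMP family) sit on their surface, endomucin (Emcn) forms part of their sugar coat, and von Willebrand factor (Vwf) is stored in them for release at sites of injury. Several of these genes are also active in blood cells. Megakaryocytes and platelets hold Vwf, and Pecam1 is found on platelets and many leukocytes.

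RefSeq promoters (GRCm38.p6, 250 bases before and 50 after each start) were taken for the 4 members with an entry. All 4 were higher in DMM at a DESeq2 adjusted P of 0.05 or less, though Tek and Tie1 lay under the fold threshold. Cdh5, Pecam1, Esam and Vwf had no entry, so no unchanged or lower member could be set beside them. Capitals mark GGAA or, on the other strand, TTCC, the core that factors of the ETS family bind, which include the endothelial regulators Erg and Fli1. The windows lie at chr3:137340828-137341127 (plus strand) for Emcn, chr4:94739039-94739338 (plus) for Tek, chr4:118489800-118490099 (minus) for Tie1 and chr2:32646345-32646644 (plus) for Eng. The GENCODE span of Tie1 reaches 118490061, so most of its window lies inside the gene by that annotation.
Emcn: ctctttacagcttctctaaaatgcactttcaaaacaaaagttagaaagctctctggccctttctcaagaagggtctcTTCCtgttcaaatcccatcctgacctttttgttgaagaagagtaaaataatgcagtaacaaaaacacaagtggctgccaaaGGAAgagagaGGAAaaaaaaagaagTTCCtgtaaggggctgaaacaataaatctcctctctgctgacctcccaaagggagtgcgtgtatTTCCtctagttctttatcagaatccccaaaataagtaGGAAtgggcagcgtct
Tek: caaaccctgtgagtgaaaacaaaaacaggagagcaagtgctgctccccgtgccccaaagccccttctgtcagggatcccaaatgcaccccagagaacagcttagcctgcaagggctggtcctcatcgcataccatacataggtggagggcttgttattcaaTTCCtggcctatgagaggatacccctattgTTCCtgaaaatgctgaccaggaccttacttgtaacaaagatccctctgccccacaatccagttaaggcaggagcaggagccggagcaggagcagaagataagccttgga
Tie1: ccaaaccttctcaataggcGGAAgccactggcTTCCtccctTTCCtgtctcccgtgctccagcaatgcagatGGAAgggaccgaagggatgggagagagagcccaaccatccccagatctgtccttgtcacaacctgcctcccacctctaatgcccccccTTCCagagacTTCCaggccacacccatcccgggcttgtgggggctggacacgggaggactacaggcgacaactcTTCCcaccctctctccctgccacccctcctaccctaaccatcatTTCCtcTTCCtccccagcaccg
Eng: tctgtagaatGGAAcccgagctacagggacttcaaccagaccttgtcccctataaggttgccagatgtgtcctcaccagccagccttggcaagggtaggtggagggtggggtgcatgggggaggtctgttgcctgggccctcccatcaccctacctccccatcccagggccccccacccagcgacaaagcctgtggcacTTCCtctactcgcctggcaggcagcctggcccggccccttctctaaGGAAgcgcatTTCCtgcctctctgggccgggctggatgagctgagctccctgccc

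The core occurred 6 times in the Emcn window, 2 times in Tek, 9 times in Tie1 and 4 times in Eng. Of 32851 promoter windows of the same length, 84.6% held at least 2, 46.3% at least 4, 15.7% at least 6 and 1.59% at least 9. The longer form AGGAAG, which contains the core and was likewise searched on both strands, occurred 2 times each in Emcn, Tie1 and Eng and 0 times in Tek, and 8.62% of all windows held at least 2. GATAA, also searched on both strands, is a core for GATA factors and occurred once in Emcn and once in Tek, against 25.4% of all windows with at least 1. These are matches of letters only. Erg itself had 403.6 to 443.1 normalised counts in the naive and 387.0 to 464.3 in the DMM libraries, with a change of -0.01 on the log2 scale (adjusted P = 0.976 with DESeq2), and Fli1 had 1178.1 to 1496.7 and 905.6 to 1293.2, with a change of -0.31 (adjusted P = 0.0839 with DESeq2). Both were looked up after their values were seen.

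Total estimated counts lay between 12479443 and 16548002 per library. Naive 2 stood apart, with 16770 genes at 10 or more counts against 18245 to 19271 in the other 7. Counts were scaled by median-of-ratios size factors (normalised counts) and compared with the DESeq2 Wald test over the whole table, and a gene was called at an adjusted P of 0.05 or less with a change of 1.5-fold or more. Chondrocyte genes were abundant, with Col2a1 at 23979.3 ± 9798.4 normalised counts in the naive and 63820.8 ± 27070.1 in the DMM libraries (SD, n = 4), and Comp at 8288.4 ± 1483.4 and 21120.8 ± 6379.9. Although the labels name chondrocytes only, transcripts of marrow cells were abundant as well, led by Hba-a2 (a globin gene with a near-identical copy) at 79625.3 ± 25467.5 against 36763.5 ± 15442.3 and S100a9 at 39110.4 ± 8224.6 against 21781.8 ± 7219.1.

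Of the 8 endothelial genes, 3 were called higher in DMM (Cdh5, Emcn and Eng) and 1 was called lower (Vwf). Over all 17350 genes tested, 7.89% were called higher and 6.07% lower. The count of 3 fell to 1 without naive 1 or DMM 2 (Cdh5) and without naive 2 (Eng), and without naive 2 Vwf was not called either. By the adjusted P alone, Tek and Tie1 joined the higher genes, giving 5 of 8 higher and 1 of 8 lower, against 11.6% and 11.5% of all genes. For 5 members the naive and DMM libraries were fully separated, with every DMM library above every naive library for Cdh5, Tek, Eng and Emcn and below for Vwf. This held for 12.1% (above) and 10.5% (below) of all genes. The median log2 fold change was 0.53 over the members and -0.02 over all genes tested. In whole-tissue RNA, a different number of endothelial cells and a different amount of RNA per endothelial cell cannot be told apart. Nor can either be told from a different mix of tissues in the dissected sample, or from expression in other cell types.

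**Figure D1:**
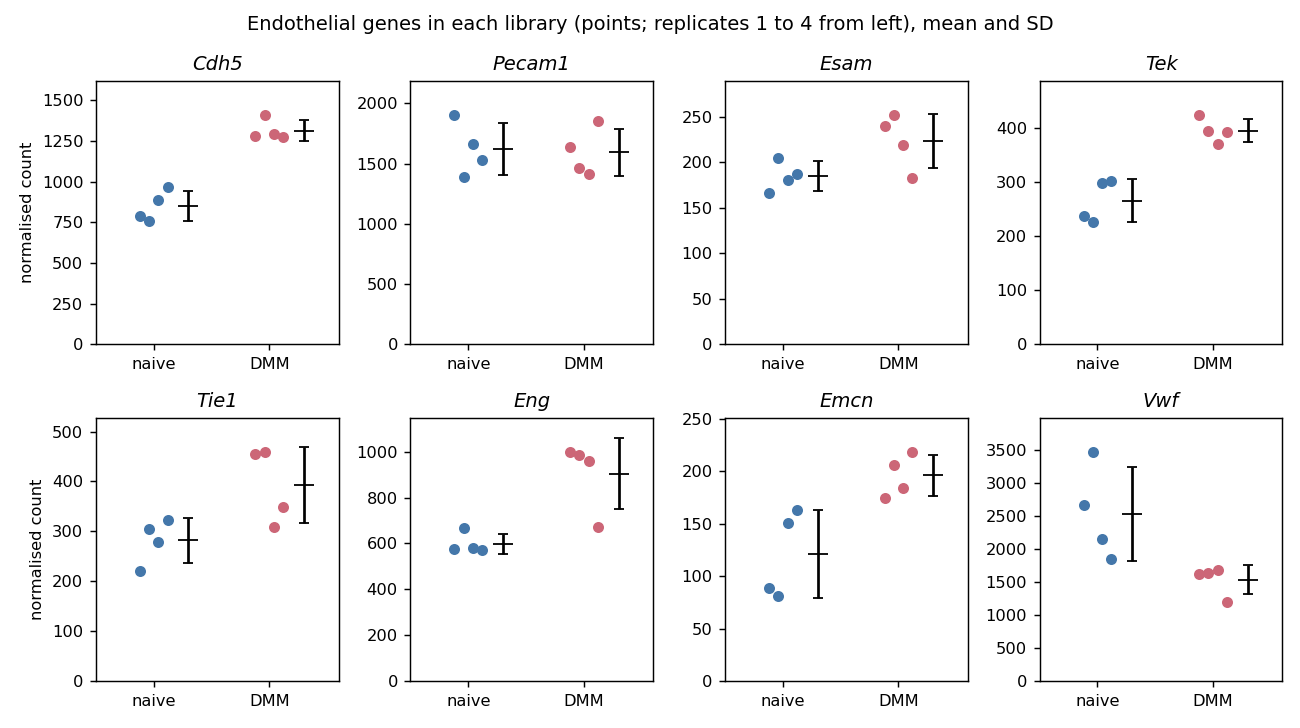
Normalised counts (y axis, from 0) of the 8 endothelial genes in 4 naive and 4 DMM libraries, with points for libraries and bars for mean ± SD. The DMM libraries sit above all naive libraries for Cdh5, Tek, Eng and Emcn and below them for Vwf, while Pecam1, Esam and Tie1 overlap.

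Cdh5, the adhesion molecule of endothelial adherens junctions (chromosome 8, 104101625 to 104144511, plus strand, GRCm38, as for all coordinates here), was upregulated. Normalised counts were 788.8, 758.3, 884.0 and 963.8 in naive 1 to 4, and 1279.6, 1407.2, 1292.4 and 1276.2 in DMM 1 to 4. The groups were well apart, since the lowest DMM library exceeded the highest naive library by more than the SD of either group. The mean went from 848.7 ± 93.5 to 1313.8 ± 62.6 (SD, n = 4), a change of 0.63 on the log2 scale (SE 0.11, adjusted P = 5.48e-07 with DESeq2), or 1.55-fold. The adjusted P passed in all 8 fits that left out 1 library, and the fold fell under the threshold in 1 of them, without naive 2 (0.58).

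The other junction genes did not pass the test. Pecam1, which joins neighbouring endothelial cells (chromosome 11, 106654217 to 106750628, minus strand), had 1900.4, 1384.9, 1665.3 and 1533.0 normalised counts in naive 1 to 4 and 1639.5, 1467.4, 1412.6 and 1852.0 in DMM 1 to 4. The groups covered nearly the same range, with naive 1 and DMM 4 as the highest libraries. The log2 fold change was -0.03 (95% Wald interval -0.29 to 0.24, DESeq2 adjusted P = 0.925), an interval that leaves out a change of 1.5-fold in either direction, and its sign depended on the scaling.

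Esam, an adhesion molecule of endothelial tight junctions and platelets (chromosome 9, 37528078 to 37538319, plus strand), had 166.2, 204.9, 180.9 and 187.1 normalised counts in naive 1 to 4 and 239.7, 251.5, 219.0 and 183.2 in DMM 1 to 4. Of the DMM libraries 3 lay above all naive libraries, and DMM 4 lay within them. The log2 fold change was 0.28 (95% Wald interval -0.03 to 0.58, DESeq2 adjusted P = 0.199).

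Among the receptors, Tek (chromosome 4, 94739289 to 94874976, plus strand) had 236.6, 226.2, 297.5 and 301.6 normalised counts in naive 1 to 4 and 422.9, 394.5, 370.4 and 391.7 in DMM 1 to 4. All DMM libraries were above all naive libraries, and naive 1 and 2 were the lowest. The mean went from 265.5 ± 39.6 to 394.9 ± 21.6 (SD, n = 4), a change of 0.57 on the log2 scale (SE 0.14, adjusted P = 0.000561 with DESeq2). At 1.49-fold it lay just under the fold threshold, and edgeR's quasi-likelihood test called it (0.59, adjusted P = 0.0111).

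Tie1, a receptor that works together with Tek (chromosome 4, 118471191 to 118490061, minus strand), had 220.7, 304.7, 279.3 and 323.1 normalised counts in naive 1 to 4 and 456.1, 459.0, 309.5 and 348.4 in DMM 1 to 4. DMM 1 and 2 stood well above the naive libraries, whereas DMM 3 lay among them. The log2 fold change was 0.48 (SE 0.18, DESeq2 adjusted P = 0.0362), under the fold threshold, and the adjusted P passed in 3 of the 8 fits that left out 1 library.

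Eng (chromosome 2, 32646595 to 32682669, plus strand) was upregulated, with 576.0, 665.2, 579.0 and 572.6 normalised counts in naive 1 to 4 and 998.5, 985.8, 960.7 and 671.5 in DMM 1 to 4. The groups did not overlap but met closely, since DMM 4 lay far below the other DMM libraries and just above naive 2. The mean went from 598.2 ± 44.7 to 904.1 ± 156 (SD, n = 4), a change of 0.60 on the log2 scale (SE 0.15, adjusted P = 0.00072 with DESeq2). This is 1.51-fold, so close to the threshold that the call held in 2 of the 8 fits without 1 library, those without naive 2 (0.65) and without DMM 4 (0.72), although the adjusted P passed in all 8. Eng overlaps Fpgs on the opposite strand by 61 bases (1.51% of its exon length), and whether counting used strand was not stated.

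Emcn, a sialomucin of veins and capillaries that is prominent on vessels of growing bone (chromosome 3, 137341067 to 137432185, plus strand), was upregulated from a low level. Normalised counts were 88.8, 81.2, 150.9 and 163.3 in naive 1 to 4, and 175.0, 206.4, 184.4 and 218.4 in DMM 1 to 4. Naive 1 and 2 were far below naive 3 and 4, and naive 4 came close to DMM 1. The mean went from 121.0 ± 42.1 to 196.0 ± 19.9 (SD, n = 4), a change of 0.69 on the log2 scale (SE 0.24, adjusted P = 0.0184 with DESeq2). With edgeR the adjusted P was 0.0549, and the call was lost without naive 1, naive 2, DMM 2 or DMM 4, with adjusted P between 0.0615 and 0.0929.

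Vwf (chromosome 6, 125546774 to 125686679, plus strand) was the only member called lower. Normalised counts were 2662.8, 3470.9, 2145.9 and 1852.7 in naive 1 to 4 and 1622.9, 1630.8, 1685.1 and 1204.0 in DMM 1 to 4. Naive 2 held the highest value and DMM 4 the lowest, and no DMM library reached the lowest naive library. The mean went from 2533.1 ± 709 to 1535.7 ± 223 (SD, n = 4), a change of -0.72 on the log2 scale (SE 0.19, adjusted P = 0.00195 with DESeq2), or 1.65-fold lower. Without naive 2 the log2 fold change was -0.53 (DESeq2 adjusted P = 0.0139), and with the total count as size factor it was -0.55 (DESeq2 adjusted P = 0.00677), both under the fold threshold.

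**Figure D2:**
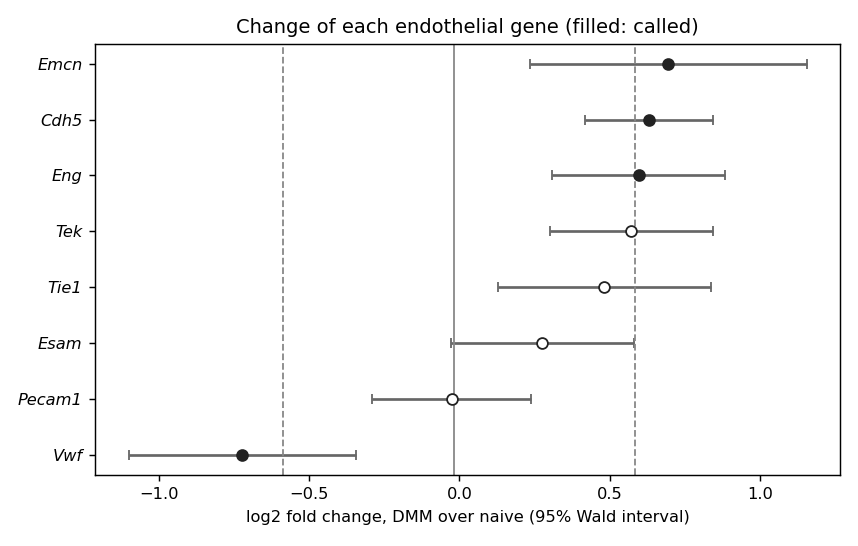
Log2 fold change, DMM over naive (x axis), of each endothelial gene with its 95% Wald interval, filled where called; the solid line is the median of all genes tested and the dashed lines are 1.5-fold. Emcn, Cdh5 and Eng lie beyond the threshold on the right (0.69, 0.63 and 0.60), Tek just inside it (0.57) and Vwf beyond it on the left (-0.72).

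The balance among the members within a library was described by ratios to Cdh5. The ratio of Vwf to Cdh5 normalised counts was 3.38, 4.58, 2.43 and 1.92 in naive 1 to 4 and 1.27, 1.16, 1.30 and 0.943 in DMM 1 to 4, so that all DMM libraries lay below all naive libraries. The ratio of Pecam1 to Cdh5 was also lower in every DMM library (1.04 to 1.45) than in any naive library (1.59 to 2.41), and so was that of Esam to Cdh5 (0.144 to 0.187 against 0.194 to 0.270). The ratios of Tek, Tie1, Eng and Emcn to Cdh5 overlapped between the groups. For Tek the ratio lay between 0.298 and 0.337 in naive and between 0.280 and 0.331 in DMM libraries, the narrowest range of the 4. Ratios were compared after the values of the members were known and are given as a description.

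Genes of megakaryocytes and platelets, which share Vwf with endothelium, were lower in DMM. Of 12 such genes, 10 were called lower, against 6.07% of all genes, and 0 higher, with a median log2 fold change of -1.02. Itgb3 and Itga2b, subunits of platelet integrins and the most abundant genes of the list, had log2 fold changes of -0.55 (DESeq2 adjusted P = 0.000219, under the fold threshold) and -1.03 (DESeq2 adjusted P = 1.47e-07). The sum of the list was 11225.1 to 16652.2 normalised counts in the naive and 6792.0 to 7911.9 in the DMM libraries, and no marker was near 0 in either group.

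Set against that sum, Vwf made up 18.3, 20.8, 18.6 and 16.5 counts per 100 counts of the list in naive 1 to 4, and 23.9, 20.6, 21.5 and 17.0 in DMM 1 to 4. Here the groups overlapped, and the DMM mean (20.7 ± 2.85, SD) was above the naive mean (18.6 ± 1.78). The sum leaned on Itgb3, with a mean of 4680.1 of 13488.0 normalised counts in naive and 3189.7 of 7407.9 in DMM libraries. Itgb3 was also the gene of the list that fell least (-0.55). The overlap depends on keeping Itgb3 in the list. Without Itgb3, Vwf per 100 counts of the list was higher in every DMM library than in any naive library. Pecam1 per 100 counts of the same list was 8.32 to 14.4 in naive and 18.0 to 26.2 in DMM libraries, without overlap. The part of platelet and megakaryocyte RNA in the Vwf result was not tested.

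**Figure D3:**
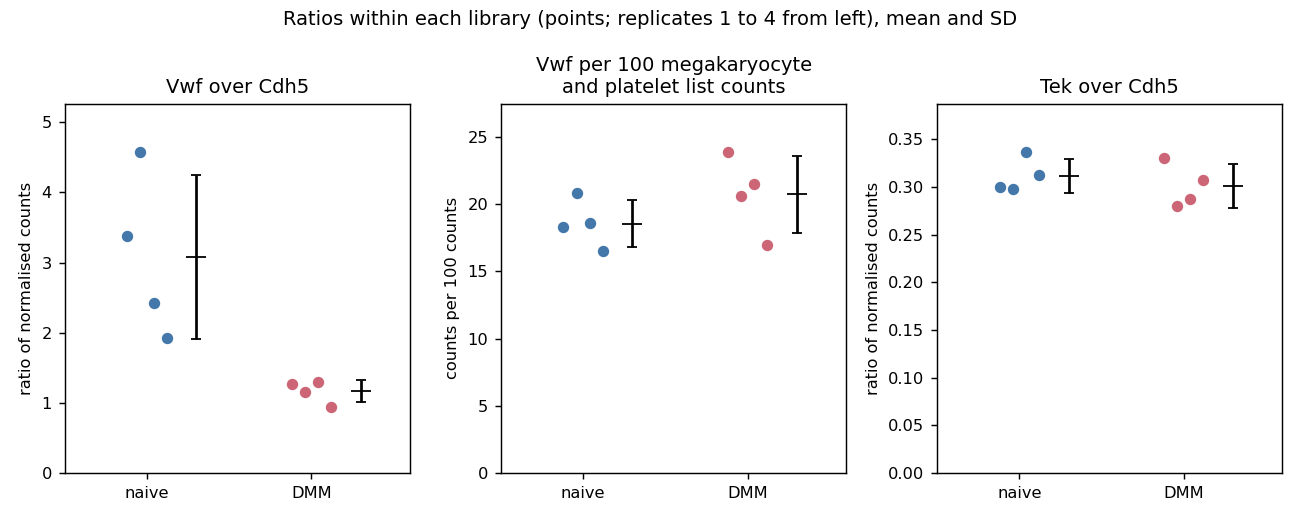
Ratios of normalised counts in each library (y axes, from 0; points are libraries, bars mean ± SD) for Vwf over Cdh5, Vwf per 100 counts of the megakaryocyte and platelet list, and Tek over Cdh5. Vwf over Cdh5 is 1.92 to 4.58 in naive and 0.943 to 1.30 in DMM libraries, whereas the other 2 ratios overlap between the groups. The overlap for the megakaryocyte and platelet list depends on keeping Itgb3 in it, and without Itgb3 every DMM library lies above every naive library.

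Genes of the neutrophil and erythroid lineages were also mostly called lower, against 6.07% of all genes. Of 14 neutrophil lineage genes 11 were called lower (median -0.84; S100a9 -0.84 and Ngp -0.88), of 10 erythroid genes 9 (median -0.96; Hba-a2 -1.11, and Hbb-bs -0.95 at an adjusted P of 0.0911 in DESeq2), and of 10 haematopoietic stem and progenitor genes 2 (median -0.38). The last list includes Kit (-0.42) and Cd34 (0.28), neither of which was called. DESeq2 called 0 of 9 B cell genes, with 2 at an unadjusted p under 0.05, and edgeR and limma-voom called 0 as well. All 9 log2 fold changes were above 0 in DESeq2 (median 0.43, Pax5 0.27). Ebf1, at 0.43 (DESeq2 adjusted P = 0.0193), lay under the fold threshold. Of 9 macrophage genes 1 was called lower, which was Cd163, while Csf1r (0.20) and Mrc1 (-0.19) were not called.

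Per length of the longest coding transcript, the level of Pecam1 was the highest of the 8 in naive libraries, at 471 ± 63.6 normalised counts per kilobase (SD, n = 4), and its lowest library (402) lay above the highest of Vwf (393). Vwf (287 ± 80.3), Cdh5 (212 ± 23.4) and Eng (175 ± 13.1) followed, and the ranges of neighbours in this order overlapped. Over the union of a gene's exons Cdh5, at 202 per kilobase, exceeded Vwf, at 158. Esam (99.1 ± 8.59) was apart from the genes on either side, and Tie1 (66.6 ± 10.5), Tek (57.0 ± 8.52) and Emcn (46.8 ± 16.2) overlapped.

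In DMM libraries the level per kilobase was again highest for Pecam1 (463 ± 57.5), and Cdh5 (329 ± 15.7) and Eng (264 ± 45.6) now came before Vwf (174 ± 25.2). On this length the ranges of these 4 did not overlap between neighbours, but over the union of exons Cdh5, at 313 per kilobase, exceeded Pecam1, at 256. Esam (120 ± 16.1), Tie1 (92.9 ± 17.9), Tek (84.9 ± 4.63) and Emcn (75.8 ± 7.68) each overlapped with the next.

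A list of 35 other endothelial genes, none of them a member, was higher in DMM for more genes than lower: 19 were called higher, against 7.89% of all genes, 2 lower, and 14 were not called, with a median log2 fold change of 0.63. The sum of the list was 11673.2 to 13744.5 normalised counts in the naive and 14661.5 to 17247.1 in the DMM libraries. Ptprb, the endothelial phosphatase that acts on Tek and VE-cadherin, had 835.4, 830.1, 1120.6 and 1107.8 in naive 1 to 4 and 1729.1, 1879.1, 1604.4 and 1544.2 in DMM 1 to 4, and was upregulated by 0.79 on the log2 scale (SE 0.14, DESeq2 adjusted P = 6.83e-07). Mmrn2 and Clec14a, which bind each other on endothelium, rose by 0.67 and 0.90, Plvap, which forms the diaphragms of fenestrae, by 0.64, Palmd by 1.26 and Podxl by 0.96. The 2 genes called lower were Calcrl (-0.69), a receptor for adrenomedullin, and Tal1 (-0.89), a transcription factor that is also active in erythroid cells and megakaryocytes.

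Genes of particular vessel types were counted in the same way, beside 7.89% of all genes called higher and 6.07% lower, and differences between these lists were not tested. Of 10 arterial genes 6 were called higher and 1 lower (median 0.84): Unc5b rose by 0.88 (DESeq2 adjusted P = 1.25e-07), Hey1, a Notch target, by 1.27 and Jag1, a Notch ligand, by 0.78, and Bmx was lower, at -0.69. Of 6 venous genes 3 were called higher (median 0.58), which were Nr2f2, the factor of venous identity (0.93), Aplnr (1.12) and Ephb4 (0.71). Of 8 capillary genes tested 1, Apln, was called higher (1.13; median -0.06), a count near the background, and Car4 was at 0 in all libraries. Of 7 genes of marrow sinusoids DESeq2 called 0 (median 0.14; 2 at an unadjusted p under 0.05) and edgeR and limma-voom 1 each, Stab1. In DESeq2 Stab1, at 0.57 (DESeq2 adjusted P = 0.00858), lay just under the fold threshold.

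Of 7 lymphatic genes 3 were called higher, against 7.89% of all genes (median 0.27). Pdpn rose by 1.54 and Prox1, the factor of lymphatic identity, by 1.72, from 3.99 to 15.9 normalised counts in naive to 10.8 to 46.1 in DMM libraries. Ccl21a had 0 to 5.67 normalised counts in naive libraries and 283.6, 0, 240.4 and 179.6 in DMM 1 to 4. As DMM 2 held none, and near-identical copies of this gene exist, its value is uncertain. Pdpn also marks synovial fibroblasts and osteocytes, and the synovial list had 3 of 8 genes called higher, with Prg4 at -0.54 (DESeq2 adjusted P = 0.403) and Cd55 at 0.24 (DESeq2 adjusted P = 0.186).

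Genes of mural cells, the pericytes and smooth muscle cells around the endothelial tube, were taken as a further list. Of 10 tested, 6 were called higher, against 7.89% of all genes, and 0 lower, with a median of 0.93. Notch3 rose by 1.03 (DESeq2 adjusted P = 4.31e-08), Rgs5 by 1.002 and Pdgfrb by 0.68. The sum of this list was 4448.0 to 7316.7 normalised counts in the naive and 9063.1 to 11354.6 in the DMM libraries. Cdh5 per 100 counts of the list was 13.2 to 17.7 in naive and 11.4 to 15.1 in DMM libraries, so the groups overlapped. Per 100 counts of the other endothelial list, Cdh5 was 5.98 to 7.01 in naive and 7.7 to 8.7 in DMM libraries. There the groups did not overlap. Against that same list Vwf was lower in every DMM library than in any naive library, while Pecam1 and Esam overlapped.

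**Figure D4:**
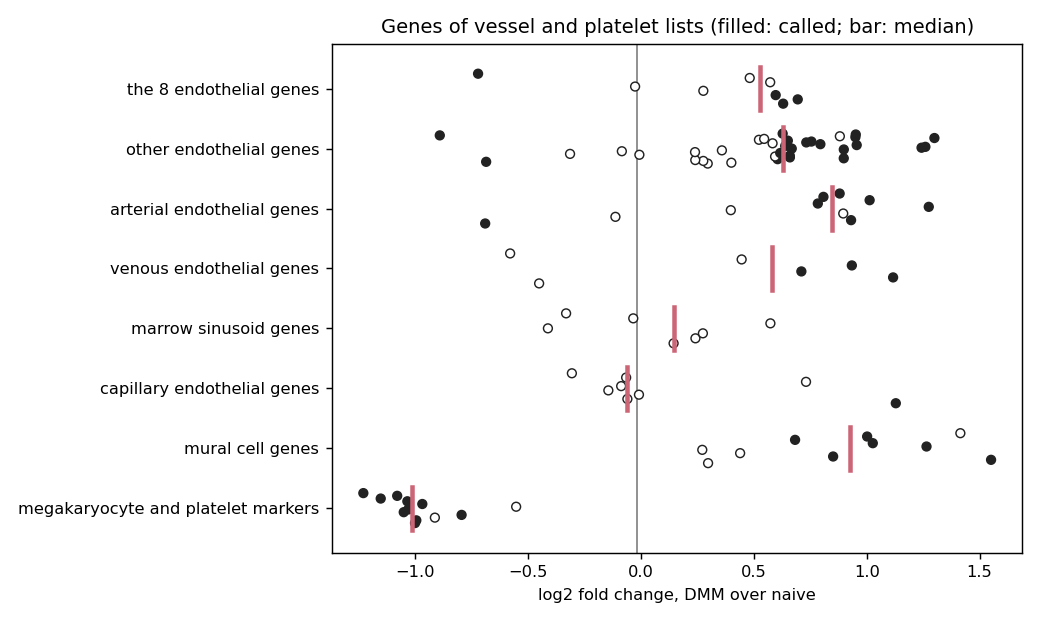
Log2 fold change, DMM over naive (x axis), of every tested gene of the endothelial, mural and megakaryocyte lists, except the lymphatic list, which is not shown. Points are filled where called, with red bars for medians and a grey line for the median of all genes tested. Medians are 0.53 for the 8 endothelial genes, 0.63 for 35 other endothelial genes, 0.93 for mural cell genes and -1.02 for megakaryocyte and platelet markers.

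Ligands and partners of the 8 proteins were taken as a list of 23 genes, of which 20 were tested. Of these, 6 were called higher, against 7.89% of all genes, and 0 lower (median 0.41). Beside Ptprb, these were Tgfb3 (1.09, DESeq2 adjusted P = 5.52e-05) and Bmpr2 (0.60, DESeq2 adjusted P = 9.27e-05), a ligand and a receptor of the family that endoglin serves, Vegfa (0.63) and Vegfc (0.63), growth factors of blood and lymph vessels, and Svep1 (0.92), a ligand of Tie1. The partners named next were chosen after their values were seen. Angpt1, the activating ligand of Tek, had 347.8 to 469.6 normalised counts in the naive and 257.9 to 327.6 in the DMM libraries, with a change of -0.49 on the log2 scale (adjusted P = 0.00576 with DESeq2), under the fold threshold. Angpt2, its context-dependent counterpart, had 0.25 (DESeq2 adjusted P = 0.268).

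For endoglin, the partner receptor Acvrl1 had a change of 0.01 on the log2 scale (adjusted P = 0.983 with DESeq2), and the ligands Gdf2 and Bmp10 were near 0, with no library above 2.71 and 3.29 normalised counts. For VE-cadherin, the catenins Ctnnb1 and Jup had 0.35 (DESeq2 adjusted P = 4.42e-05) and 0.52 (DESeq2 adjusted P = 0.00219), both under the fold threshold. For von Willebrand factor, coagulation factor F8, which it carries, had 0.09 (DESeq2 adjusted P = 0.77), and its protease Adamts13 stayed at or below 5.32 normalised counts.

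Markers of cartilage and of other tissues of the joint were counted beside 7.89% of all genes called higher and 6.07% lower. Of 9 osteoblast and osteocyte genes 7 were called higher (median 1.01; Ibsp 1.43, Bglap2 0.70), with a summed level of 20753.0 to 27881.2 normalised counts in the naive and 41446.2 to 72980.8 in the DMM libraries. Of 7 osteoclast genes tested 1 was called higher, a count near the background (Mmp9 0.06, Acp5 0.51, neither called). Of 17 chondrocyte genes 6 were called higher (Col2a1 1.41, Comp 1.35). Of 4 skeletal muscle genes 2 were called higher (Tnni2 0.91, Myh2 2.82), while Myh4 had no adjusted P. Myh2 had 101.2 normalised counts in DMM 1, against 3.2 to 18.1 in DMM 2 to 4. DESeq2, edgeR and limma-voom each called 0 of 5 adipocyte genes (Fabp4 0.89 and Adipoq 0.61, DESeq2 adjusted P of 0.0754 and 0.107), with 4, 3 and 2 at an unadjusted p under 0.05. The part of these tissues and of marrow in the endothelial and mural values was not tested.

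Across the 8 libraries the mean profile of the members was most like those of Fbxl20, Kdm4b, Trio, Ric1 and Maf. That mean combines members called higher with Vwf, which was called lower, so it is not the profile of any single member. The log2 fold changes of these genes were 0.345, 0.291, 0.351, 0.345 and 0.26. Likeness was the root mean square difference of centred log2 values, which was 0.0307, 0.0441, 0.0477, 0.0528 and 0.0549 for these genes among 13218 genes whose mean reached 50 normalised counts. The same measure was also taken for single members. The nearest gene to Cdh5 was Rilpl1 (0.0396), to Vwf E2f2 (0.0736) and to Pecam1 D430042O09Rik (0.0646).

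The share of 31-base words of their transcripts that also occur in another gene was 0% for Cdh5, Tek and Esam, and 2.5% for Pecam1, the highest of the 8.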

How the data were processed

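RNA was sequenced from medial knee cartilage caps of 8 mice. The authors trimmed the reads with Trimmomatic, pseudo-aligned them with Kallisto and summed transcripts to genes with tximport, and the deposited table holds these estimated counts, of which 39.2% are not whole. They were rounded to whole numbers; length offsets were not used. The methods of the study name GRCm38, the submitters' processing notes GRCh38, and the named library kits differ, so build and kit are uncertain. Symbols were found for 48855 of 50462 identifiers, and coordinates and lengths are from GENCODE vM21.

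The test was the DESeq2 Wald test, which the study's methods name, in version 1.42.0 with R 4.3.3. Unshrunken fold changes, independent filtering, Benjamini-Hochberg adjustment over all genes and no covariates were chosen here. Alternatives used edgeR 4.0.16 and limma 3.58.1. Scripts were tested on simulated data. The members and gene lists were chosen with earlier results of these data known. Named genes are all members, the called genes of smallest adjusted P in each vessel list (6 of the other endothelial genes, 3 of each other list), the 2 most abundant of each marker list and the 5 most alike in profile.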

Additional observations from a re-analysis of the deposited data

Results flagged for a closer look

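Normalised counts of the 8 genes, 3 list sums and the ratio of Vwf to Cdh5 gave 24 groups of 4 libraries to search for a lone distant library by Dixon's criterion. It was met 4 times, and 1.2 times is the chance level. Eng was 665.2 in naive 2, where naive 1, 3 and 4 had 572.6 to 579.0. It was 671.5 in DMM 4, where DMM 1 to 3 had 960.7 to 998.5. Vwf was 1204.0 in DMM 4, against 1622.9 to 1685.1, and Cdh5 was 1407.2 in DMM 2, against 1276.2 to 1292.4. No explanation was tested for these values.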

How the results depend on the processing

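With the total count as size factor the members' log2 fold changes were higher by 0.14 to 0.17, 5 members were called higher (Tek and Tie1 besides), 0 lower and 1 other endothelial gene lower, and over all genes 2027 were called higher and 488 lower, against 1369 and 1053. Without a fold threshold 5 members were called higher and 4016 genes in all. Against a null of 1.5-fold DESeq2 called 0 members higher, 0 lower, 0 other endothelial genes higher, 0 lower, 0 mural genes higher and 94 genes in all, since that test asks for changes beyond the threshold. edgeR and limma-voom each called 1 other endothelial gene lower in place of 2. Over the union of exons, an alternative chosen after seeing the data, the mean ratio per kilobase of Vwf to Cdh5 in naive libraries was 0.805 in place of 1.39, and that of Pecam1 to Cdh5 in DMM libraries 0.821 in place of 1.41. Pecam1, near 0, turned positive with TMM factors (0.0026), with the total count (0.12) and without single libraries (-0.11 to 0.062).

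Leaving out 1 library at a time gave 1 to 3 members called higher (1 without naive 1, naive 2 or DMM 2), 0 to 1 lower (0 without naive 2) and 1 to 2 other endothelial genes lower (1 without naive 4). For single members, 46 of 64 values in these fits and 56 of 72 under other settings kept their direction and their side of the threshold. For none of these changes was the cause tested.

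Same-numbered libraries did not deviate together (correlations 0.05, 0.06, -0.12 and 0.12), and the number was treated as a name only. Whether same-numbered libraries shared a processing step was not tested directly. With the replicate block 2 members were called higher (Cdh5 and Emcn; Eng at 0.58), 1 lower and 2079 genes in all. By the study's methods each library is 1 mouse, and p-values rest on the spread between 4 mice a group. Emcn, the member of lowest count, was the least precisely measured.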
